A study of Mus musculus with 27 samples.

Results

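Interferon-stimulated genes are the genes that cells switch on when interferons reach them. The set described here holds 37 such genes, listed by symbol. Each was measured by probe sets annotated to that symbol alone, and the probe set with the highest mean log2 intensity over all 27 arrays stood for the gene. On this basis 35 of the 37 genes were measured, out of 18193 genes with 1 symbol. All 35 reached a log2 intensity of 5 on at least 3 arrays and entered the tests, which covered 15711 genes. The probe set for Isg15, the ubiquitin-like modifier, is annotated to several symbols, and Ifi44 was not analysed here. The rule that picks a probe set for each gene uses symbols and mean level, and no difference between groups. The list of genes itself was chosen with earlier results of these data known.

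Type I interferons bind a receptor built from Ifnar1 and Ifnar2, which works through the kinases JAK1 and TYK2. A complex that holds STAT2 and IRF9 then binds the interferon-stimulated response element, or ISRE, in target promoters. Interferon gamma uses a separate receptor and acts through the gamma-activated site, or GAS. Most cells hold a low tonic level of these transcripts without infection. In bone, interferons are best known for restraining osteoclast formation.

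The cells were KUSA4b10, a line of mouse marrow stromal cells able to differentiate toward osteoblasts. Cells were left untreated, given PTH(1–34), a parathyroid hormone fragment, at 10 nM, or given PTHrP(1–141), parathyroid hormone-related protein, at 20 nM. RNA was taken at 1, 6 or 24 h, giving 9 groups of 3 arrays. Dose and peptide length differ between the ligands, so they cannot be told apart from the ligand itself. All groups come from 1 cell line, and the untreated arrays of a time serve both ligand comparisons at that time. Of 9 stromal and osteoblast markers, Col1a1, at log2 13.69 to 14.8, and Col1a2, at 14.19 to 14.6, were the brightest and carry most of the summed intensity, 40150 to 77180, while Thy1 lay at 5.11 to 5.92. Macrophage and blood cell markers summed to 1008 to 1424 over 12 genes, with Ptprc and Itgam under the filter, and endothelial markers to 274.3 to 397.7 over 7 genes; sums over different probe sets do not rank cell types. The median intensity of an array was 83.03 to 90.87.

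Promoter windows of 250 bases before to 50 bases after the start site, from RefSeq on GRCm38.p6, were matched by symbol to 27 of the 37 genes, with 31 windows. The letters of the ISRE, taken as GAAA, any 2 bases and GAAA on either strand, were found in 13 of these windows (41.9%), against 3.44% of 32851 windows over all genes. The GAS letters, TTCNNNGAA, which read alike on both strands, were found in 8 windows (25.8%, against 8.3%). The cyclic AMP response element TGACGTCA, the site of the pathway that the PTH receptor is known to drive, was in 0 of the 31 windows, against 1.79% of all. With so low a share over all windows, this count does not set the genes apart. Only the full 8 letters were searched. A match describes these letters only and is not evidence of binding. The stretches around the ISRE letters follow for 6 genes whose level differed between groups at 6 h, and for Ifit1, among the genes with the largest spread. Each is read 5′ to 3′ on the strand that carries the GAAA repeat, with the matched letters in capitals.
Irgm1, chr11:48871425-48871460, minus strand: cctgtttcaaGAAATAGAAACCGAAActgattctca
Ifih1, chr2:62646206-62646233, minus strand: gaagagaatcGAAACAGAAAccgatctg
Igtp, chr11:58199512-58199541, plus strand: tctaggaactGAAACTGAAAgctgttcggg
Eif2ak2, chr17:78882535-78882564, minus strand: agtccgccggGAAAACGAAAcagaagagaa
Oas1a, chr5:120907520-120907555, minus strand: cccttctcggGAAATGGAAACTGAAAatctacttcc
Bst2, chr8:71537577-71537612, minus strand: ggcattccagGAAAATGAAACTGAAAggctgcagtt
Ifit1, chr19:34640775-34640823, minus strand: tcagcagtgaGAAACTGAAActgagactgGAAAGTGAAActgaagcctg
The capitals of Irgm1, Oas1a and Bst2 cover 2 overlapping matches each, and Ifit1 holds 2 separate ones. The Irgm1 matches begin at positions -30 and -24 from the start site, and those of Oas1a at -20 and -14. The whole window is given for Irgm1, which had the largest ligand effect, and for Irf1, the gene that moved the opposite way, from the first of its 2 listed start sites. Capitals mark the ISRE letters in the Irgm1 window and the GAS letters in the Irf1 window.
Irgm1, chr11:48871371-48871670, minus strand: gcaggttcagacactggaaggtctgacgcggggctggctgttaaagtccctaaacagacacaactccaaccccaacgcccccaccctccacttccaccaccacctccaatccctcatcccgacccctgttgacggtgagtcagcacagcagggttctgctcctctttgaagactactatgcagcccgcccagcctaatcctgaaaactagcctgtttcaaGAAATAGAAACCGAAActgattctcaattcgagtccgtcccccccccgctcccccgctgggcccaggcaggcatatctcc
Irf1, chr11:53769764-53770063, plus strand: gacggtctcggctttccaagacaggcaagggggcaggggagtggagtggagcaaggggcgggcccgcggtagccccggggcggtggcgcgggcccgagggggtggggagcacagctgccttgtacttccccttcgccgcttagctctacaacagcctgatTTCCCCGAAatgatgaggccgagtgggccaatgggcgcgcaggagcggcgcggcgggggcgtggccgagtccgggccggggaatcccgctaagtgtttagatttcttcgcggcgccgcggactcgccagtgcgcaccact
The Irf1 window holds no ISRE letters, and its GAS letters begin at position -90. The windows of Psmb9 and Tap1, which are read in opposite directions on chromosome 17, share 275 of their 300 bases.

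In untreated cells most interferon-stimulated genes were much higher at 24 h than at 1 or 6 h. Between 1 and 6 h 0 of 35 passed in limma, beside 2.27% of all genes tested (0.719% higher and 1.55% lower), with 3 at an unadjusted p under 0.05 and a median difference of -0.05, which was 0.09 without replicate 1 at 6 h. From 1 to 24 h, 24 of 35 rose and 0 fell, beside 23.1% of all genes tested that were called in either direction and 11.6% that rose. From 6 to 24 h, 27 rose and 0 fell, beside 23.4% of all genes called and 12.1% that rose. The median log2 difference of the 35 genes was 1.04 from 1 to 24 h and 1.02 from 6 to 24 h, against -0.005 and 0.008 over all genes. The difference from 6 to 24 h was above 0 for each of the 35. The arrays of 24 and 1 h did not overlap for 29 genes, all higher at 24 h, beside 21.5% of all genes. The 11 genes not called over 1 h had differences from -0.16 (Rsad2) to 1.05 (Ifit1).

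**Figure D1:**
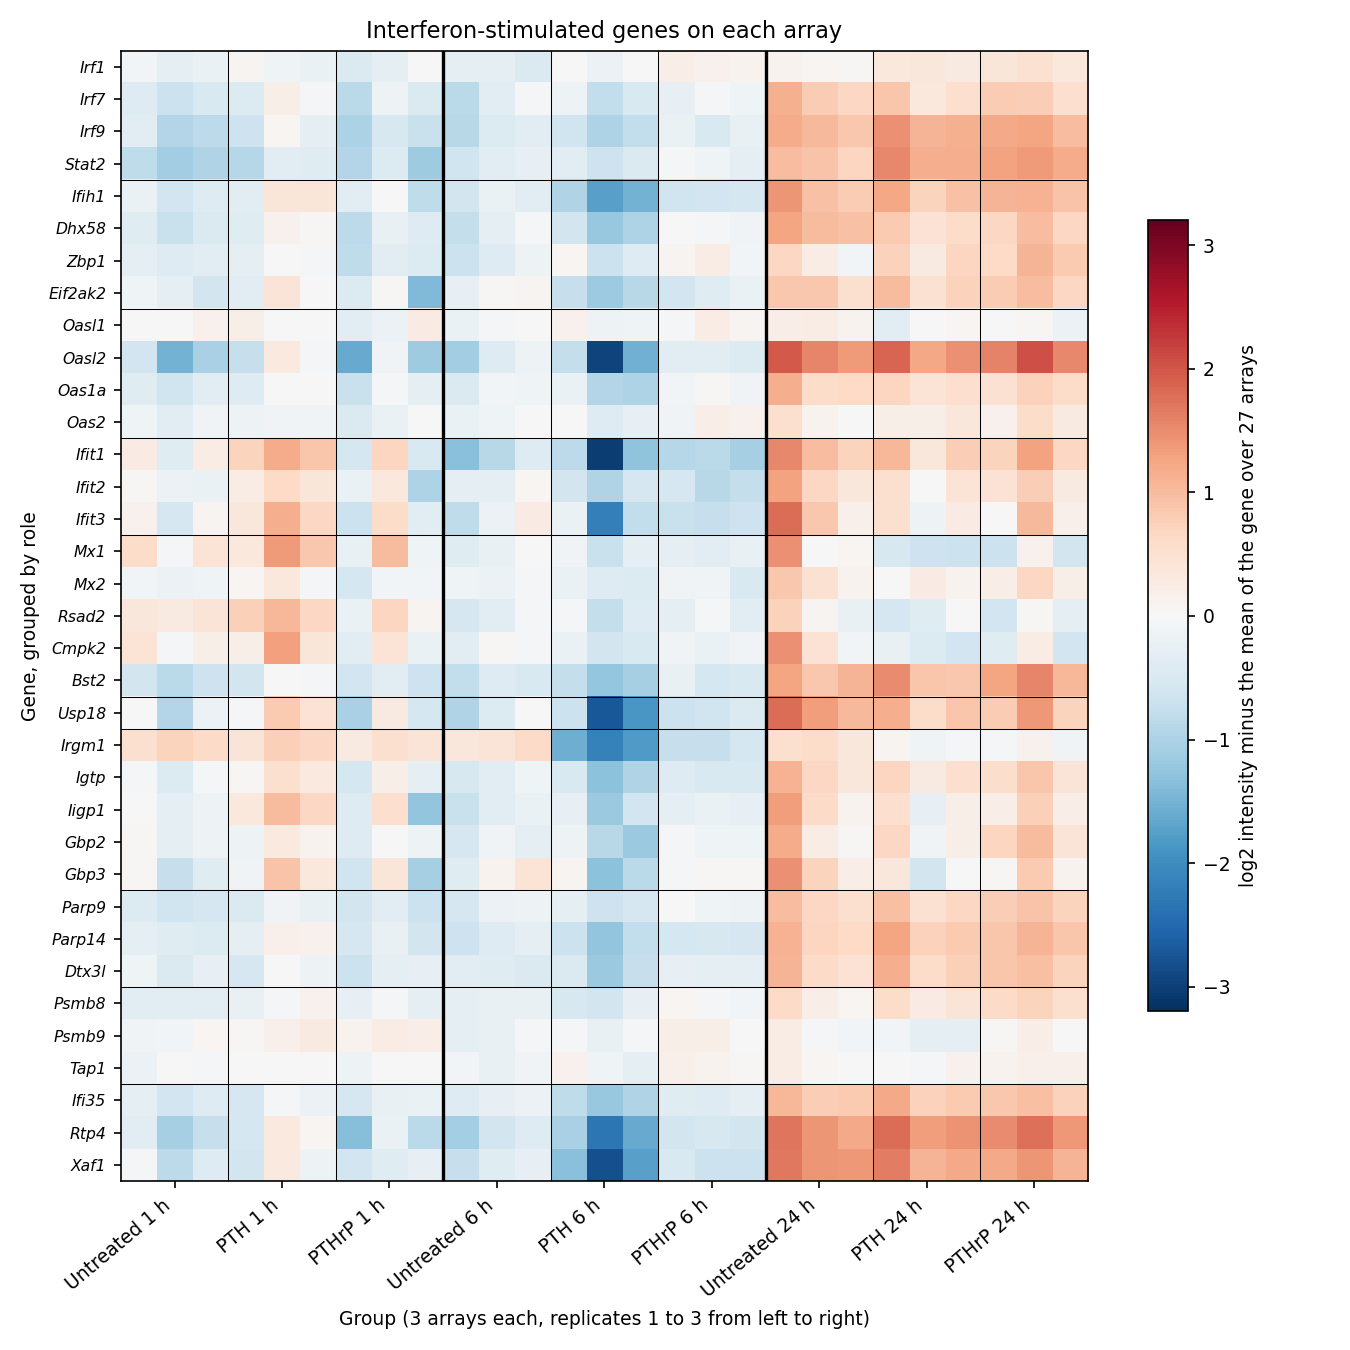
Log2 intensity of each of the 35 genes (rows, grouped by role) on each of the 27 arrays (columns), minus the mean of the gene over all arrays. Red is above and blue below that mean; the 24 h columns are red for most genes, and 2 of the 3 PTH columns at 6 h are the bluest, with a median of -0.98 and -0.78.

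The rise took in the transcription factors of the response. Stat2, a subunit of the ISRE-binding complex, was at 7.47, 7.17 and 7.31 in untreated cells at 1 h and at 9.27, 9.19 and 8.98 at 24 h (log2 intensity). No array of 1 h came near those of 24 h, and the difference was 1.83 ± 0.16 (adjusted p = 5.2e-09). Its partner Irf9 rose by 1.73 ± 0.18 and Irf7, an amplifier of type I interferon production, by 1.40 ± 0.20. Irf1, which also answers interferon gamma and other stimuli, rose by 0.28 ± 0.09 (adjusted p = 0.0318). That call was lost in 5 fits without 1 array (adjusted p up to 0.157), under quantile normalization (0.102) and under cyclic loess (0.0834). All 4 of these factors were also called against 6 h. The RNA and DNA sensors rose as well: Ifih1 by 1.47 ± 0.22, Dhx58 by 1.59 ± 0.18, Eif2ak2, the double-stranded RNA-activated kinase, by 1.09 ± 0.24 and Zbp1 by 0.63 ± 0.19. Dhx58 was at 6.83, 6.51 and 6.75 at 1 h and at 8.47, 8.23 and 8.15 at 24 h, with no overlap, while the dimmer of its other 2 probe sets differed by -0.003.

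Among the antiviral effectors the change was uneven. Oasl2, a protein of the oligoadenylate synthetase family, had the largest rise of the 35 genes. It stood at 7.83, 6.93 and 7.42 at 1 h, at 7.34, 8.03 and 8.30 at 6 h and at 10.41, 10.03 and 9.81 at 24 h. The 1 and 6 h arrays overlap, and the 24 h arrays lie far above both, by 2.69 ± 0.41 over 1 h (adjusted p = 1.75e-05) and by 2.19 ± 0.41 over 6 h (adjusted p = 0.000189). Oas1a rose by 1.24 ± 0.18 and Bst2, the tether of budding virus, by 1.78 ± 0.18 over 1 h. Mx1, a GTPase that blocks viral replication, Rsad2 (viperin) and Cmpk2, a nucleotide kinase, were not called over 1 h, at 0.17 ± 0.33, -0.16 ± 0.23 and 0.42 ± 0.30. Of the IFIT genes, Ifit2 was called over 1 h, and all 3 were called over 6 h. That of Ifit3 over 6 h, 1.17 ± 0.43 (adjusted p = 0.0485), was lost in 19 of 27 fits without 1 array, at adjusted p up to 0.307, and in 5 other settings. Ifit1 was at 8.00, 8.46 and 8.93 at 6 h and at 10.88, 10.32 and 10.07 at 24 h. Its arrays did not overlap and differed by 1.96 ± 0.39 (adjusted p = 0.00045).

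The remaining roles gave the same picture with exceptions. Rtp4, a receptor transporter protein, was at 9.30, 8.58 and 8.90 at 1 h, 8.57, 9.04 and 9.23 at 6 h and 11.35, 11.05 and 10.85 at 24 h. It rose by 2.16 ± 0.28 over 1 h (adjusted p = 2.35e-06) and 2.13 ± 0.28 over 6 h (adjusted p = 2.51e-06). Xaf1, known for promoting apoptosis, was at 9.69, 8.92 and 9.36 at 1 h, 9.03, 9.37 and 9.49 at 6 h and 11.45, 11.17 and 11.15 at 24 h. It rose by 1.94 ± 0.26 over 1 h (adjusted p = 4.04e-06) and by 1.96 ± 0.26 over 6 h (adjusted p = 3.06e-06). Usp18, the protease that removes ISG15 and damps the receptor, rose by 1.76 ± 0.38 over 1 h. Parp9, Parp14 and Dtx3l, an ADP-ribosyltransferase and ubiquitin ligase group, rose by 1.02 to 1.27. Of the interferon-inducible GTPases, which guard vacuoles that hold pathogens, Igtp and Gbp3 rose over 1 h, and Irgm1 was at -0.13 ± 0.12. In antigen processing Psmb8, an immunoproteasome subunit, rose by 0.62 ± 0.12, and Psmb9 was at 0.09 ± 0.10. Tap1 was called over 6 h alone, by 0.25 ± 0.09, from 7.46, 7.31 and 7.43 to 7.78, 7.62 and 7.55. Another of its probe sets differed there by -0.03.

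Fewer cells with a high level and a lower level in every cell cannot be told apart in these bulk samples, here or in the results that follow. The Actb 3′ minus 5′ probe set difference was 0.211 to 0.253 in untreated cells at 1 h and 0.362 to 0.386 at 24 h (log2). Of the 9 stromal and osteoblast markers 2 rose and 4 fell from 1 to 24 h, and their sum was 72450 to 76570 at 1 h and 62350 to 63340 at 24 h. Of 10 macrophage and blood cell markers tested, 2 rose, Cd68 by 0.52 ± 0.15 and Cd74 by 0.34 ± 0.12, and 0 fell, with 6 differences above 0, 4 below and a median of 0.031. Their sum was 1257 to 1313 at 1 h and 1265 to 1358 at 24 h, with Ptprc and Itgam at log2 4.38 or below and 4.39 or below on every array. The part of these in the rise was not tested. Replicate 1 at 24 h had the highest median over the set, and without it 18 genes rose over 1 h, with a median difference of 0.82, and 19 over 6 h, with a median of 0.79. The calls lost without it over 1 h were Oas2, Mx2, Ifit2, Zbp1, Irf1 and Gbp3, at adjusted p from 0.0597 to 0.233. Over 6 h they were Ifit2, Ifit3, Mx2, Eif2ak2, Zbp1, Iigp1, Gbp2 and Tap1, at 0.0523 to 0.307.

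**Figure D2:**
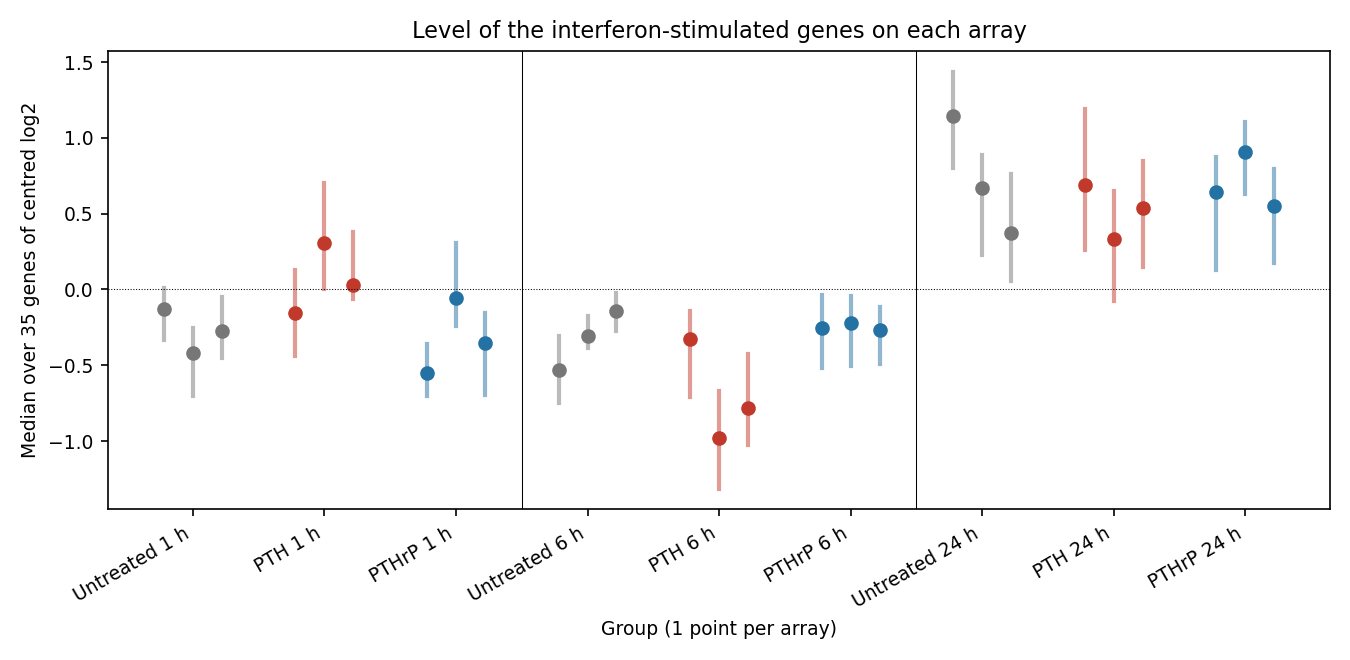
Median over the 35 genes of log2 intensity minus the mean of the gene over all arrays, 1 point per array, with a bar from the lower to the upper quartile of the genes. Untreated cells at 24 h lie at 1.14, 0.67 and 0.37, and PTH at 6 h is the lowest group, at -0.33, -0.98 and -0.78.

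At 1 h neither ligand gave a call. With PTH, 0 of 35 genes passed in limma, beside 1.74% of all genes tested (1.44% higher and 0.299% lower), although the difference from untreated cells was above 0 for each of the 35. Their median was 0.40, against -0.021 over all genes, and 16 had an unadjusted p under 0.05. The arrays did not overlap for 9 genes, all higher with PTH, beside 7.41% of all genes, and for 0 that were lower, beside 9.85%. Ifit1 had the largest difference, 0.90 ± 0.39 (adjusted p = 0.466), followed by Oasl2 at 0.90 ± 0.41 and Ifit3 at 0.84 ± 0.43. Irgm1 was at 0.004 ± 0.119. With array weights 9 genes passed, and 4 did when only these 6 arrays were fitted, all higher. How many of all genes passed under such settings was not counted, here or in the results that follow. With PTHrP, 0 passed, beside 1.81% of all genes (1.57% higher and 0.248% lower), the median was -0.05 and 1 gene had an unadjusted p under 0.05; array weights called 1, lower. PTHrP and PTH differed in 0 genes, beside 0% of all genes, with 17 at an unadjusted p under 0.05. The median was -0.41, and 34 of the 35 differences lay below 0. The medians came to 0.09 for PTHrP and -0.26 for PTHrP against PTH without PTHrP replicate 1. These 3 comparisons share arrays, so their values are not independent.

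At 6 h PTH lowered 11 of the 35 genes and raised 1. Beside this, 29.3% of all genes tested were called, with 17.9% lower and 11.4% higher, so the share of the set that was called, 34.3%, was close to that of all genes. The direction was less even than over all genes. The median difference was -0.45, against -0.003 over all genes, and 30 of 35 differences lay below 0. The arrays of PTH and untreated cells did not overlap for 9 genes that were lower, beside 25.6% of all genes, and for 1 that was higher, beside 18.3%.

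Irgm1, an immunity-related GTPase that acts in autophagy and in control of its fellow GTPases, had the largest effect. It was at 10.34, 10.39 and 10.60 in untreated cells and at 8.42, 7.82 and 8.17 with PTH. All 3 PTH arrays lay far below every untreated array, and the difference was -2.30 ± 0.12, a 4.93-fold lower intensity (adjusted p = 1.62e-13). Xaf1 was at 9.03, 9.37 and 9.49 untreated and at 8.42, 6.95 and 8.03 with PTH. Its groups did not overlap, and it fell by 1.50 ± 0.26 (adjusted p = 7.49e-05). The other, dimmer Xaf1 probe set, at a mean log2 of 5.17, differed by -0.166. The Irgm1 window printed above carries the ISRE letters, and the Xaf1 window holds none. Among measured genes with a window, 4 of 12 with the letters and 4 of 13 without were called. Their median differences were -0.67 and -0.25. The Actb 3′ minus 5′ difference was 0.227 to 0.308 in untreated cells and 0.327 to 0.345 with PTH. The summed stromal and osteoblast markers were at 74850 to 77180 and 65580 to 67180, with 1 of the 9 higher and 3 lower. Of 10 macrophage and blood cell markers 1 rose, Cd68 by 0.46 ± 0.15, and 0 fell, with 3 differences below 0 and a median of 0.057. Their sum was 1204 to 1244 untreated and 1199 to 1349 with PTH. The part of these in the differences was not tested.

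Usp18 was at 7.54, 8.05 and 8.48 untreated and at 7.80, 5.79 and 6.63 with PTH. The first PTH array lay within the untreated range and the other two below it, and the difference was -1.28 ± 0.38 (adjusted p = 0.0109). Oasl2 behaved alike, at 7.34, 8.03 and 8.30 untreated and 7.69, 5.50 and 6.92 with PTH. The groups overlapped, and the difference was -1.19 ± 0.41 (adjusted p = 0.0278). The sensors Ifih1, Eif2ak2 and Dhx58 fell by 1.03 ± 0.22, 0.88 ± 0.24 and 0.55 ± 0.18. The other Eif2ak2 probe sets, at a mean log2 of 7.84 and 7.49, differed by less, -0.542 and -0.257. Zbp1, the fourth sensor of the set, was at 0.07 ± 0.19. Ifi35, Igtp and Parp14 fell by 0.70 ± 0.13, 0.60 ± 0.21 and 0.45 ± 0.16.

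Rtp4 was at 8.57, 9.04 and 9.23 untreated and at 8.61, 7.32 and 8.02 with PTH, with 1 PTH array inside the untreated range. It fell by 0.97 ± 0.28 (adjusted p = 0.0101), while its other, dimmer probe set differed by 0.09, in the opposite direction. Dhx58, whose product binds viral RNA, stood at 6.45, 6.90 and 7.16 untreated and at 6.63, 6.02 and 6.22 with PTH, again with 1 array inside the untreated range. Both other Dhx58 probe sets had differences below 0 in this comparison. Irf1 went the other way: 9.49, 9.48 and 9.32 untreated against 9.80, 9.60 and 9.80 with PTH. Its groups did not overlap, and it rose by 0.30 ± 0.09 (adjusted p = 0.0166). The IFIT genes were not called, at -0.84 ± 0.39 for Ifit1, -0.83 ± 0.43 for Ifit3 and -0.52 ± 0.24 for Ifit2, and neither were the antigen-processing genes, at -0.19 to 0.09.

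Irgm1, Xaf1, Ifih1, Eif2ak2 and Ifi35 passed with any 1 of the 27 arrays left out. Without replicate 3 of the untreated cells at 6 h 5 genes passed, and the calls of Usp18, Oasl2, Rtp4, Dhx58, Igtp, Parp14 and Irf1 were lost, at adjusted p from 0.057 to 0.153. Without replicate 2 of PTH at 6 h 6 passed, and the same genes other than Irf1 were lost, at 0.107 to 0.28. The differences of Usp18 and Oasl2 then came to -0.81 and -0.58, and the median of the 35 to -0.22. With array weights 22 genes were lower and 1 higher, and the share of all genes called under those weights was not counted. Under the mean of all probe sets of a gene, Rtp4 (adjusted p = 0.103), Dhx58 (0.0787) and Parp14 (0.11) were not called. The Irf1 call was also lost without PTH replicate 1 (0.0694) or 3 (0.0698) and under quantile normalization (0.0533).

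**Figure D3:**
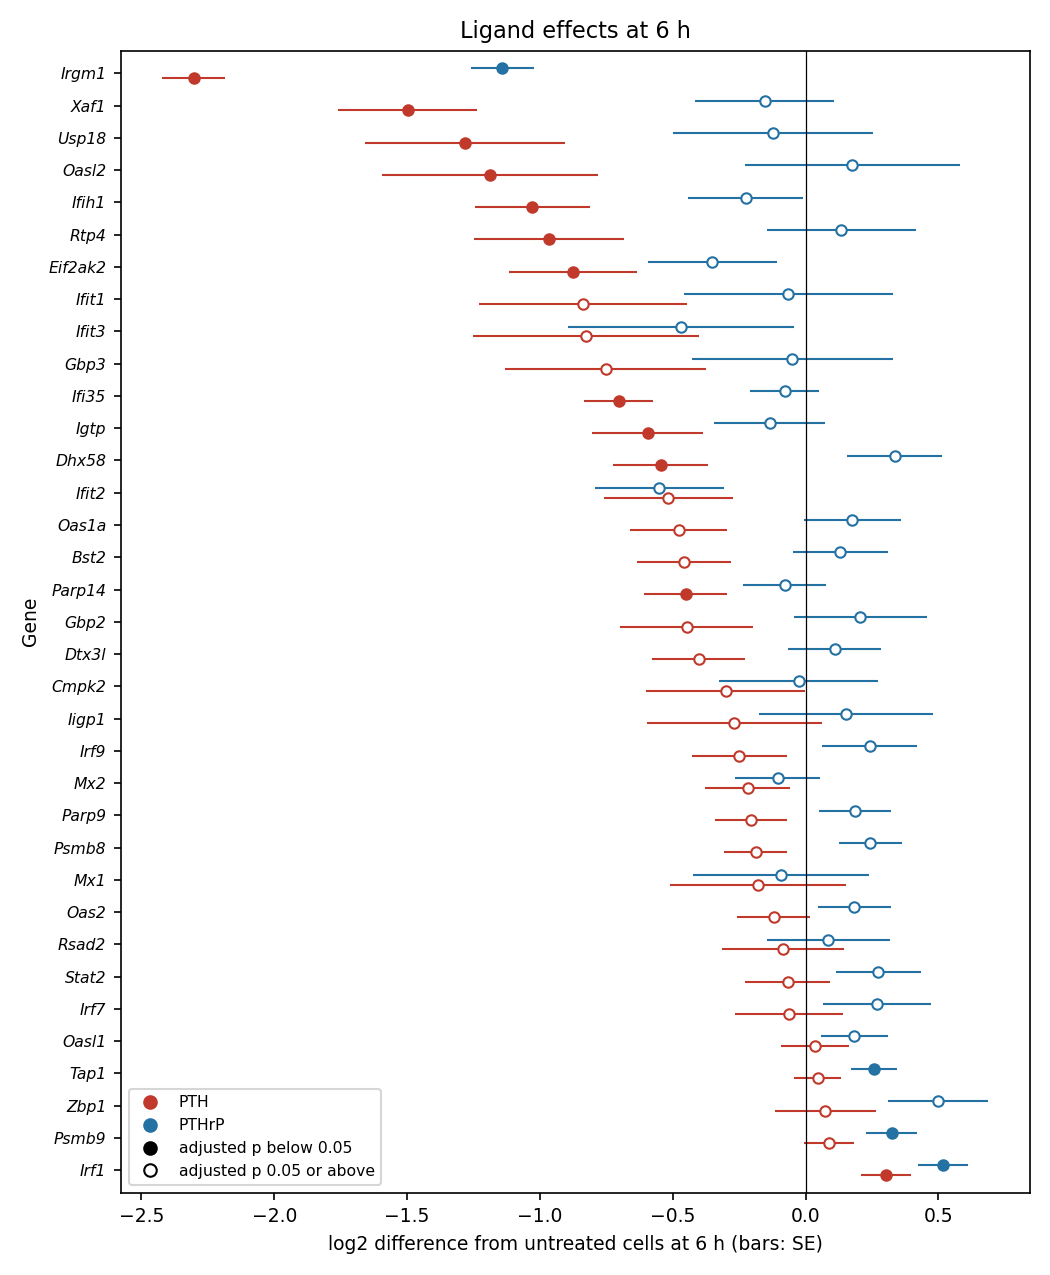
Log2 difference of PTH (red) and PTHrP (blue) from untreated cells at 6 h for the 35 genes, with bars of 1 SE, ordered by the PTH effect. Filled points have an adjusted p below 0.05. Irgm1, at the top, was lower with both ligands, Irf1, at the bottom, was higher with both, and 10 further genes carry a filled red point below 0.

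PTHrP at the same time called 11.4% of the set, a smaller share than over all genes. It raised 3 of the 35 genes and lowered 1, beside 20.9% of all genes tested, with 8.7% higher and 12.2% lower. The median difference was 0.13, against 0.031 over all genes, and -0.02 without untreated replicate 1. Irgm1 was at 9.24, 9.25 and 9.41 with PTHrP, all below the untreated arrays given above, and fell by 1.14 ± 0.12 (adjusted p = 9.18e-08). Irf1 was at 10.01, 9.93 and 9.91, all above the untreated arrays, and rose by 0.52 ± 0.09 (adjusted p = 0.000215). These were the only 2 calls that held with any 1 array left out.

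The other 2 calls were a pair with overlapping promoter windows. Psmb9, an immunoproteasome subunit, was at 7.45, 7.51 and 7.70 untreated and at 7.95, 7.94 and 7.75 with PTHrP. The groups did not overlap, and it rose by 0.32 ± 0.10 (adjusted p = 0.0157). Tap1, part of the transporter that feeds peptides to MHC class I, was at 7.46, 7.31 and 7.43 untreated and at 7.72, 7.65 and 7.59 with PTHrP. It rose by 0.26 ± 0.09 (adjusted p = 0.0382), and another Tap1 probe set differed by -0.004. Under the mean of all its probe sets Tap1 was not called (adjusted p = 0.444). Without replicate 1 or 2 of the untreated cells, or replicate 1 or 2 of PTHrP, 2 genes passed. Psmb9 was then at 0.0584 to 0.0932 and Tap1 at 0.0526 to 0.159, and Tap1 was also lost without untreated replicate 3, at 0.0655. A fit of these 6 arrays alone called 8 genes, 5 higher and 3 lower, and array weights called the same numbers.

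The direct comparison of the ligands at 6 h set 10 of the 35 genes higher with PTHrP and 0 lower, beside 7.62% of all genes tested, with 4.45% higher and 3.17% lower. The median difference was 0.43, against 0.037 over all genes, and 34 of 35 differences lay above 0. The arrays did not overlap for 20 genes, all higher with PTHrP, beside 14.5% of all genes. Oasl2 was at 8.10, 8.09 and 8.01 with PTHrP, above the PTH arrays of 7.69, 5.50 and 6.92, and differed by 1.36 ± 0.41 (adjusted p = 0.0394). Xaf1 was at 9.27, 9.08 and 9.08 with PTHrP, also above all PTH arrays, by 1.34 ± 0.26 (adjusted p = 0.00211). Irgm1, low with both, was higher with PTHrP by 1.16 ± 0.12 (adjusted p = 1.94e-06). Rtp4 was at 9.04, 9.14 and 9.06 with PTHrP, above all PTH arrays, by 1.10 ± 0.28 (adjusted p = 0.0166).

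Dhx58 (0.88 ± 0.18), Ifih1 (0.80 ± 0.22), Oas1a (0.65 ± 0.18), Ifi35 (0.63 ± 0.13), Bst2 (0.59 ± 0.18) and Psmb8 (0.43 ± 0.12) made up the rest. Usp18, at 1.16 ± 0.38, and Irf1, at 0.22 ± 0.09, were not called. Of the 12 measured genes with ISRE letters in a window, 4 were called in this comparison. So were 4 of the 13 with a window and no match. The median difference was 0.62 with the letters (0.17 to 1.16) and 0.33 without (-0.03 to 1.36). Whether the letters bear on the differences was not tested. Xaf1, Dhx58, Ifi35 and Irgm1 passed with any 1 array left out. Without replicate 2 of PTH or replicate 3 of PTHrP 4 genes passed, without replicate 1 or 2 of PTHrP 5, and without replicate 3 of PTH 6. The median of the 35 was 0.26 without replicate 2 of PTH. The adjusted p of the calls so lost ran from 0.0515 for Rtp4 to 0.291 for Oasl2. The Oasl2 difference was 0.76 without PTH replicate 2, and its call was also lost with a replicate block over all arrays (0.0528) or within time (0.062), a trend and robust prior (0.0695) and these 6 arrays alone (0.0783). The second Xaf1 probe set, at a mean log2 of 5.17, differed by -0.009. That of Rtp4, at 4.89, differed by 0.008, and the Rtp4 call was lost under the mean of all probe sets (adjusted p = 0.0891). With array weights 27 genes were higher, and the share of all genes called under those weights was not counted. The Actb 3′ minus 5′ difference was 0.271 to 0.355 with PTHrP, around the values with PTH, and the stromal and osteoblast markers summed to 68630 to 73020, above them; their part in the differences was not tested.

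**Figure D4:**
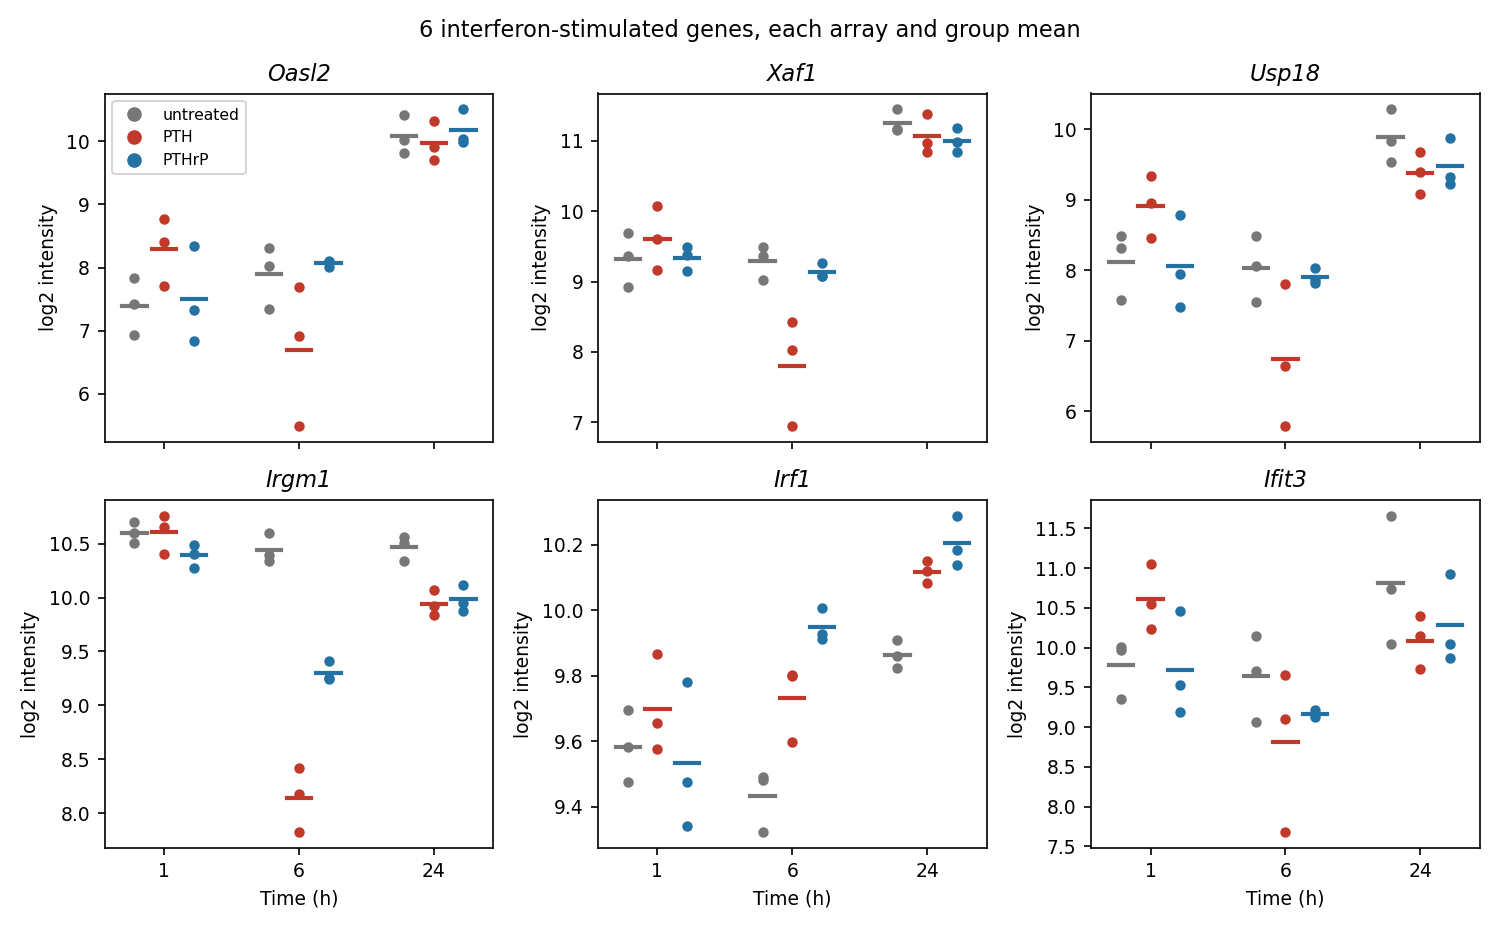
Log2 intensity of 6 genes on each array (points) with the group mean (line), by time, for untreated cells (grey), PTH (red) and PTHrP (blue). The group means of Oasl2, Xaf1 and Usp18 are highest at 24 h in each treatment and lowest with PTH at 6 h, Irgm1 is low with both ligands at 6 h, Irf1 is higher with both, and Ifit3 shows the widest spread within groups.

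By 24 h the ligand comparisons called fewer genes than at 6 h, in the set and over all genes. PTH lowered 3 of 35 genes (8.57%) and raised 0, beside 11.6% of all genes tested, with 5.69% higher and 5.96% lower. The share of the set that was called was thus not above that of all genes. The median difference was -0.21. Mx1 was at 7.02, 5.54 and 5.62 untreated and at 5.06, 4.91 and 4.87 with PTH. The PTH arrays were all lower, though much of the difference, -1.12 ± 0.33 (adjusted p = 0.0272), lay in untreated replicate 1. Cmpk2 was at 8.00, 7.02 and 6.45 untreated and at 6.32, 6.10 and 5.92 with PTH. The groups did not overlap, and it fell by 1.04 ± 0.30 (adjusted p = 0.0217). The other Cmpk2 probe set, at a mean log2 of 5.72, differed by -0.185. The Cmpk2 call was lost under the mean of all probe sets (adjusted p = 0.0733) and with only these groups fitted (0.0523). Irgm1 was at 10.51, 10.56 and 10.34 untreated and at 10.07, 9.84 and 9.92 with PTH, with no overlap, and fell by 0.53 ± 0.12 (adjusted p = 0.00337). Irgm1 alone passed without untreated replicate 1, where Mx1 had an adjusted p of 0.245, Cmpk2 of 0.204 and the median of the 35 was -0.007. It was also the sole call without PTH replicate 2 or 3, and without PTH replicate 1 Mx1 was at 0.0526. With array weights 8 genes passed, 3 higher and 5 lower. The summed stromal and osteoblast markers were at 62350 to 63340 in untreated cells, 40150 to 43440 with PTH and 46280 to 54350 with PTHrP at this time. The Actb 3′ minus 5′ difference was 0.362 to 0.386 untreated, 0.411 to 0.428 with PTH and 0.432 to 0.453 with PTHrP, with no overlap. Of 10 macrophage and blood cell markers tested, most differences lay below 0. With PTH 3 lay above 0 and 7 below, with a median of -0.053. With PTHrP 1 lay above and 9 below, with a median of -0.065. Cd14 rose with PTH by 0.44 ± 0.11 and with PTHrP by 0.40 ± 0.11, and Cd68 fell with PTH by 0.47 ± 0.15. The list summed to 1265 to 1358 untreated, 1157 to 1424 with PTH and 1262 to 1311 with PTHrP. The part of these in the differences was not tested.

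PTHrP at 24 h raised 1 gene and lowered 1, 5.71% of the set, beside 6.1% of all genes tested (3.09% higher and 3.02% lower). The median was -0.04, and it was 0.10 without untreated replicate 1 and -0.14 without untreated replicate 3. Irgm1 was at 9.95, 10.12 and 9.88, below all untreated arrays, and fell by 0.49 ± 0.12 (adjusted p = 0.0106). Irf1 was at 9.91, 9.86 and 9.82 untreated and at 10.19, 10.29 and 10.14 with PTHrP. It rose by 0.34 ± 0.09 (adjusted p = 0.0286) with no overlap. The Irgm1 call was lost without untreated replicate 2 (adjusted p = 0.0661) or PTHrP replicate 3 (0.061). That of Irf1 was lost without any 1 of the untreated replicates or of PTHrP replicates 1 and 2 (0.0535 to 0.146), and under quantile normalization (0.133) and cyclic loess (0.0789). Neither call was left without untreated replicate 2. With array weights 5 genes passed, 4 higher and 1 lower. PTHrP and PTH differed in 0 of 35 genes at 24 h, beside 1.16% of all genes, with 1 gene at an unadjusted p under 0.05 and a median of 0.11. The median was -0.012 without PTHrP replicate 2 and 0.21 without PTH replicate 1. That the test missed its threshold does not show that the ligands act alike.

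The change of each ligand effect with time was tested directly. The PTH effect was lower at 6 h than at 1 h for 16 of the 35 genes and higher for 0, beside 18.5% of all genes, with 6.49% higher and 12.1% lower. The median change was -0.79. At 1 h Irgm1 was at 10.51, 10.70 and 10.60 untreated and at 10.41, 10.76 and 10.65 with PTH, overlapping, so that its PTH effect went from 0.004 to -2.30, a change of -2.31 ± 0.17 (adjusted p = 4.15e-10). Oasl2 at 1 h was at 7.71, 8.77 and 8.40 with PTH, with 2 arrays above every untreated one, and its effect changed by -2.09 ± 0.57. Usp18 at 1 h was at 8.48, 7.57 and 8.31 untreated and 8.45, 9.34 and 8.95 with PTH, overlapping, and its effect changed by -2.07 ± 0.53. That of Xaf1, at 9.16, 10.07 and 9.60 with PTH at 1 h, changed by -1.79 ± 0.37. From 6 to 24 h the PTH effect came back toward 0 for 4 genes, Irgm1, Xaf1, Ifih1 and Ifi35. That was 11.4% of the set, beside 20.4% of all genes called (12.6% higher and 7.82% lower). The share was thus no larger than over all genes. Without untreated replicate 1 at 24 h 7 passed, and the median change, 0.23, came to 0.48; it was 0.49 without PTH replicate 1 at 6 h and 0.08 without untreated replicate 3 at 24 h. With PTHrP, Irgm1 and Irf1 changed from 1 to 6 h, beside 12.2% of all genes (3.74% higher and 8.45% lower). Irgm1 alone passed from 6 to 24 h, beside 12.1% (7.08% higher and 5.03% lower).

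Pooled over the 9 groups, the genes of the set varied far more between replicate arrays than most genes did, and they varied together. With PTHrP at 6 h the members were tighter, with a median range of 0.132, against 0.202 over all genes. With PTH at 6 h it was 0.606, against 0.194. The fit used 1 spread per gene for all groups, also where these groups were compared. The pooled SD within groups had a median of 0.256 over the 35 genes (range 0.104 to 0.594), against 0.127 over all genes tested. It was above the 95th percentile of all genes, 0.219, for 23 of the 35. Ifit3 had the widest, 0.594, then Oasl2, 0.563, and Ifit1, 0.545. Tap1, Irf1 and Psmb9 had the narrowest and lay below the median of all genes.

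Ifit3 shows how wide these groups were. In untreated cells it was at 10.01, 9.35 and 9.96 at 1 h, at 9.06, 9.71 and 10.15 at 6 h and at 11.66, 10.73 and 10.04 at 24 h. With PTH it was at 10.24, 11.05 and 10.55, then 9.66, 7.68 and 9.10, then 10.40, 9.73 and 10.14. With PTHrP it was at 9.19, 10.46 and 9.53, then 9.17, 9.13 and 9.21, then 9.87, 10.92 and 10.04. The PTHrP arrays at 6 h lay closest together, and the PTH arrays at 6 h furthest apart. Ifit1 with PTH at 6 h, at 8.51, 6.30 and 8.06, spanned 2.2 log2 units, the widest range of any member in any group. Within-group deviations of 2 members had a median correlation of 0.7 over 595 pairs of genes (quartiles 0.52 and 0.8), across the same 27 arrays. Of the 35, 32 correlated above 0.5 with the mean of the others, and 1.22% of the genes outside the set did. The other three were Oasl1, at 0.1, Irf1, at 0.13, and Tap1, at 0.42.

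**Figure D5:**
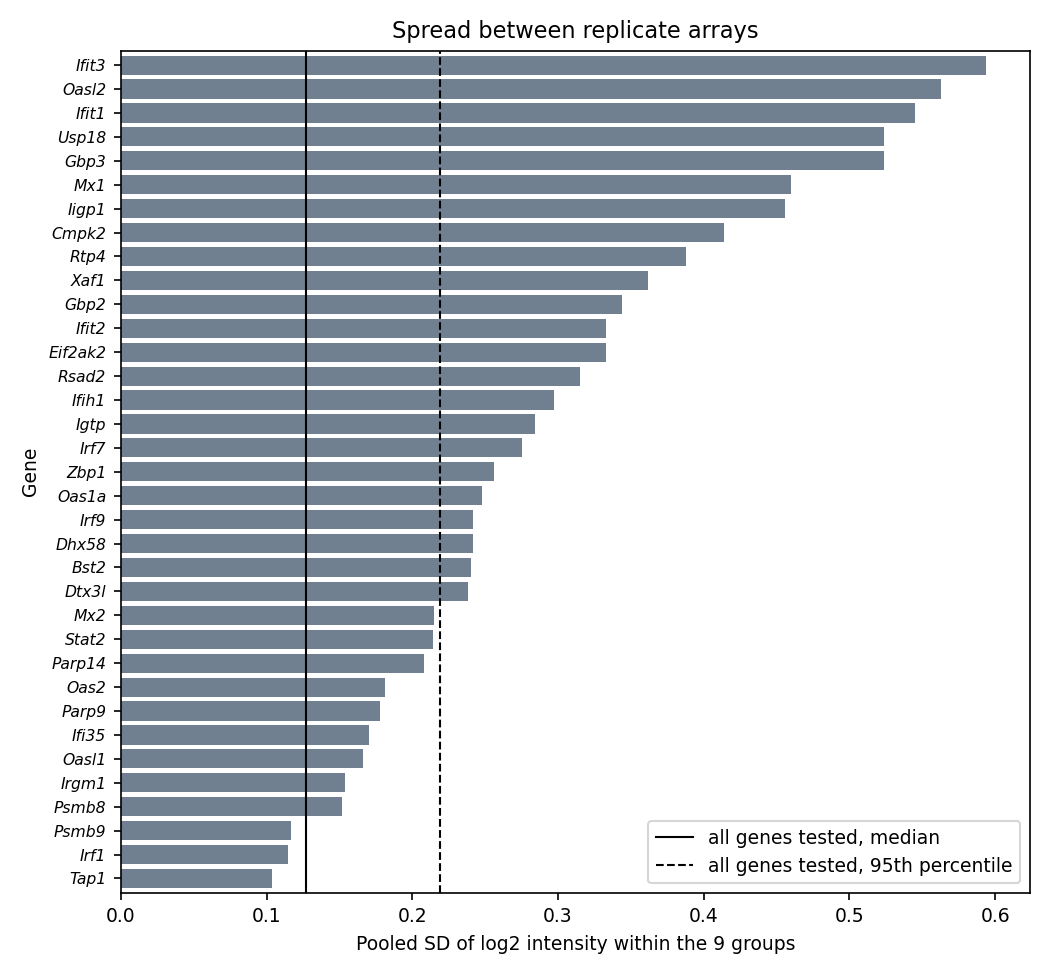
Pooled SD of log2 intensity within the 9 groups for each of the 35 genes, with the median (solid line, 0.127) and 95th percentile (dashed line, 0.219) of all genes tested. Ifit3, Oasl2 and Ifit1 spread the most between replicate arrays, and 23 bars pass the dashed line.

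The median of the set differed between arrays of a group. With PTH at 6 h it was -0.33, -0.98 and -0.78 log2 units from the mean of all arrays, and with PTHrP at 6 h -0.26, -0.22 and -0.27. In untreated cells it was -0.13, -0.42 and -0.27 at 1 h, -0.53, -0.31 and -0.14 at 6 h and 1.14, 0.67 and 0.37 at 24 h. The members' mean deviation within groups correlated with the Actb 3′ minus 5′ difference at 0.07, with that of Gapdh at -0.03 and with the array median at -0.25 (27 arrays). Since the members move together on an array, counts of calls within 1 comparison are not independent of each other.

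The upstream genes of the interferon response were read from the same fit. Over all 27 arrays Ifnb1 lay between 5.19 and 5.72, Ifng between 3.65 and 4.14, Ifna1 between 6.24 and 6.8, Ifna2 between 5.67 and 6.38, Ifna4 between 4.34 and 5.02 and Ifna5 between 5.18 and 5.94 (log2 intensity). Of 32 tested genes of interferon ligands, receptors and signalling, PTH at 6 h raised 8 and lowered 8, against 29.3% of all genes called. Socs3, a feedback inhibitor of JAK kinases, rose by 2.52 ± 0.21 and Stat3 by 1.45 ± 0.07. Ptpn2, a phosphatase that acts on JAKs and STATs, rose by 0.91 ± 0.12, and Il10rb, a receptor chain used by type III interferons, by 0.84 ± 0.10. The receptor chains Ifnar1 and Ifnar2 rose by 0.38 ± 0.08 and 0.26 ± 0.08 and Ifngr1 by 0.72 ± 0.10, while the kinase Tyk2 fell by 0.63 ± 0.07. PTHrP raised 8 and lowered 3, against 20.9% of all genes called, with Socs3 at 2.14 ± 0.21, Stat3 at 1.03 ± 0.07 and Tyk2 at -0.34 ± 0.07. In untreated cells from 1 to 24 h, 9 rose and 1 fell, against 23.1% of all genes called, led by the RNA sensor Ddx58 at 1.17 ± 0.14 and its ubiquitin ligase Trim25 at 0.69 ± 0.10.

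Among 51 other interferon-induced genes, PTH at 6 h lowered 18 and raised 0, against 17.9% of all genes lower and 11.4% higher, with a median difference of -0.23. The largest were Ifi47 at -1.76 ± 0.15, Gbp6 at -1.52 ± 0.21, Irgm2 at -0.95 ± 0.23 and Tor3a at -0.91 ± 0.17. The first 3 are GTPases of the same families as Irgm1 and Gbp2. PTHrP at 6 h lowered 3 and raised 2, against 20.9% of all genes called. It was higher than PTH in 12 and lower in 0, against 7.62% of all genes, with Ifi47 at 1.00 ± 0.15 and Irgm2 at 0.86 ± 0.23. In untreated cells 33 rose and 1 fell from 1 to 24 h, against 23.1% of all genes called, led by Ddx60 at 1.72 ± 0.32, Samd9l at 1.59 ± 0.23, Trim30a at 1.47 ± 0.22 and Irgm2 at 1.45 ± 0.23.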

How the data were processed

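RNA of 27 samples was hybridised to Affymetrix mouse arrays. The deposited intensity values are on a linear scale and were made by the authors with RMA, per the submitters' processing notes, whose version is not given in the sources used here; RMA includes background correction and quantile normalization between arrays, which can shrink changes that affect most genes. Log2 of the intensity was taken, and probe sets annotated to several symbols were left out. Genes under log2 5 on all but 2 or fewer arrays were not tested. Group means of 9 groups were fitted with limma 3.58.1 in R 4.3.3 (lmFit, eBayes, two-sided), with 18 residual degrees of freedom, and p-values were adjusted by Benjamini-Hochberg over all 15711 genes tested in each of 16 comparisons, with a threshold of 0.05. A value after ± is a standard error of that fit. Affymetrix arrays carry no read depth, and the number of arrays limits the precision. No source used here says that the 3 samples of a group are separate cultures made on different days, so p-values rest on how far these samples differ from each other, and that may be technical variation alone. Replicate numbers were checked as pairs: in 1 of 9 pairs of groups did all same-numbered arrays deviate together (correlation over 0.1), so no block was used. The fit was tested on simulated data. Array values are printed for the 4 called genes with the largest difference in each comparison of 2 groups. They are also printed for the 3 genes with the widest spread and those with a probe set in the opposite direction. For changes of an effect with time they are printed only in part. The members and gene lists were chosen with earlier results of these data known. Alternatives were other normalizations, filters, probe set rules, priors, array weights, blocks and arrays left out.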

Additional observations from a re-analysis of the deposited data

Results flagged for a closer look

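In 23 cases the effect of a ligand on a gene differed between times in the test of the difference itself (limma, adjusted over all genes). Groups of 3 arrays are too small for a test of single outlying arrays. The PTH effect at 6 h minus that at 1 h was -2.31 for Irgm1, -2.09 for Oasl2, -2.07 for Usp18, -1.79 for Xaf1, -1.74 for Ifit1, -1.62 for Rtp4, -1.59 for Ifih1 and -1.24 for Eif2ak2 on the log2 scale. It was -1.06 for Ifit2, -1.05 for Igtp, -0.999 for Dhx58, -0.94 for Bst2, -0.90 for Ifi35, -0.83 for Parp14, -0.79 for Oas1a and -0.48 for Psmb8. For Ifit1 the effect went from 0.90 at 1 h to -0.84 at 6 h, neither of which was itself called. The largest adjusted p was 0.047, for Psmb8, and the smallest 4.15e-10, for Irgm1. Of the 27 fits without 1 array, the call was lost in 19 for Psmb8 (adjusted p up to 0.15), 7 for Oas1a (up to 0.105), 6 for Ifit1 (up to 0.0959) and 6 for Ifit2 (up to 0.0869). Without PTH replicate 2 at 6 h the change of Ifit1 was -1.08. Other settings ended the call of Psmb8 in 5 cases, Oas1a in 3 and Ifit1, Dhx58 and Parp14 in 1 each. One of the other Dhx58 probe sets had a change of 0.05, opposite in sign to the chosen one.

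The PTH effect at 24 h minus that at 6 h was 1.77 for Irgm1, 1.30 for Xaf1, 0.94 for Ifih1 and 0.73 for Ifi35. The Ifih1 call was lost in 7 fits without 1 array, at adjusted p from 0.0556 to 0.0951. For PTHrP, the effect at 6 h minus that at 1 h was 0.57 for Irf1 and -0.93 for Irgm1. The effect at 24 h minus that at 6 h was 0.65 for Irgm1, which went from -1.14 to -0.49.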

How the results depend on the processing

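Over 105 results for single genes and 3939 alternatives, 3725 kept their direction and side of the threshold, 214 lost the call and 0 reversed. The settings were 27 fits without 1 array and 11 others. Leaving out an array outside the groups compared cannot change a difference, only its SE and adjusted p. The direction was thus fixed in advance in many of these alternatives. Array weights raised most counts of called genes. The share of all genes called was counted in the main fit only, so none stands beside the counts that follow. For PTH they gave 9 at 1 h, 23 at 6 h and 8 at 24 h, and for PTHrP 1, 8 and 5. PTHrP against PTH gave 27 at 6 h and 1 at 24 h, and untreated cells 3 from 1 to 6 h. The change of the PTH effect gave 28 (median -1.13) and 17, and that of the PTHrP effect 6 and 3. With only the groups compared in the fit, PTH at 1 h gave 4, PTHrP at 6 h 8, untreated cells from 1 to 6 h 3 and the later PTHrP change 3. PTHrP at 24 h gave 1 under quantile normalization, cyclic loess and a replicate block within time, and untreated cells from 1 to 6 h gave 1 under quantile normalization. The replicate block left every other count within 1.5 times, with 12 for PTH at 6 h and 8 for PTHrP against PTH at 6 h.

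With each array left out in turn, counts ran from 5 to 18 (PTH 6 h), 1 to 4 (PTH 24 h), 2 to 5 (PTHrP 6 h), 0 to 3 (PTHrP 24 h), 4 to 14 (PTHrP against PTH, 6 h), 0 to 1 (untreated, 1 to 6 h), 18 to 26 and 19 to 31 (untreated, 24 h over 1 and 6 h). Changes of the PTH effect ran from 12 to 21 and 3 to 7 (median 0.076 to 0.489), and of the PTHrP effect from 2 to 3 and 1 to 2. Background correction and slide or scan date blocks were not run, since the tables used here hold no such data. With 3 arrays a group, the number of arrays limits what these comparisons can detect.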

Other observations

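Outside the set, the genes whose deviations within groups were most like the mean of the 35 over the 27 arrays were Gbp2b (r = 0.95), Phf11d (0.94), Mndal (0.94), Irgm2 (0.93), Rnf213 (0.92), Ddx60 (0.91) and Parp12 (0.9). Several belong to families long known to answer interferon. These points share arrays and normalization, and the genes were picked for this likeness after their values were seen. Of the 51 other interferon-induced genes, 28 had a correlation over 0.5.

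Other values of the signalling list varied with time and ligand. In untreated cells Socs3 was lower at 6 than at 1 h by 1.28 on the log2 scale, the sole call of that list between these times. PTH at 24 h still held Socs3 2.18 ± 0.21 above untreated cells. At 1 h PTH raised 1 of the 32 genes of that list and lowered 1, beside 1.74% of all genes called. The raised gene was Trim25, a ubiquitin ligase of RNA sensing, higher by 0.46 (adjusted p = 0.00768).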
